A study of Mus musculus with 6 samples.

Results

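Genes of mitosis were described in NIH3T3 cells, an immortalised mouse fibroblast line, whose chromosomes carry lacO insertions (arrays of the lac operator, to which the lac repressor binds). Of 39 genes chosen by name for their roles in mitosis, 38 had at least 1 probe set that the platform annotation names with that gene alone, out of 18193 such genes in all; Ccnb1 had none and was not analysed here. Biotin-labelled total RNA of 6 samples was measured on Affymetrix arrays. In 3 samples the insertion was tethered, which places it at the nuclear periphery, and in 3 it was untethered and lay centrally. Each group holds the replicate numbers 1, 2 and 3. All cells were clone M, a single clone with multiple insertions, in the same serum-containing medium and at a similar confluency. The labels name neither the tethering protein nor separate cultures for the replicates, so p-values measure only how far these samples spread, which may be technical.

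Mitosis is driven by cyclin B bound to the kinase Cdk1, with Polo and Aurora kinases building the spindle, and a checkpoint at the kinetochores holding back the anaphase-promoting complex until every chromosome is attached. Most of its genes are transcribed in a common wave in G2 and M phase, when B-Myb and FoxM1 bind them together with the MuvB complex, and the same complex, joined by E2F and a pocket protein, keeps them low in resting cells. MuvB binds the cell cycle genes homology region, or CHR, whose usual letters are TTTGAA, and NF-Y binds the CCAAT box nearby. Fibroblasts deprived of serum or crowded leave the cycle and lose these transcripts, so the level of the set is widely read as a measure of proliferation. In a culture of mixed phases, fewer cells in G2 and M phase and less RNA of these genes per cell cannot be told apart.

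The starts of the members' genes are shown before the values. Whether the letters found there bear on how the values varied was not tested. RefSeq windows (GRCm38.p6) from 250 bases before to 50 bases after the annotated transcription start were given for 32 of the 39 members, in 34 windows; Kif20a, Pbk, Tpx2, Shcbp1, Aurkb, Ccna2 and Cdc25c had none. The letters TTTGAA or TTCGAA, on either strand, lay in 82.4% of these windows, against 19.2% of all 32851 windows. CCAAT, on either strand, lay in 82.4%, against 37.4% of all windows, and at least 2 copies of it lay in 58.8%, against 11.7%. Both kinds of letters lay in 76.5% of the members' windows and in 7.52% of all. These are matches of letters, not sites shown to be bound. In 23 members the CHR letters began within 40 bases of the start, on either side, a count not made over all windows.

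The 110 bases before the start are shown for the 5 members in which CHR letters began within the last 40 of those bases and whose arrays numbered 1 were called and at least 2-fold lower. Capitals mark TTTGAA or TTCGAA and CCAAT on the gene's strand, and their reverse complements TTCAAA and ATTGG.
Cdk1 (chr10:69352913-69353022, reverse strand): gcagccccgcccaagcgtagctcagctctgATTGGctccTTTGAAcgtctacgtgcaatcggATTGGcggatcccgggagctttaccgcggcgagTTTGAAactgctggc
Ccnf (chr17:24251410-24251519, reverse strand): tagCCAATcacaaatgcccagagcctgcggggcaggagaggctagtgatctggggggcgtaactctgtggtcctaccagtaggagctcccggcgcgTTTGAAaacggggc
Cdc20 (chr4:118437344-118437453, reverse strand): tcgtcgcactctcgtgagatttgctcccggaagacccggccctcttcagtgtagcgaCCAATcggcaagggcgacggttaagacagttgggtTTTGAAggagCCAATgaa
Ube2c (chr2:164769819-164769928, forward strand): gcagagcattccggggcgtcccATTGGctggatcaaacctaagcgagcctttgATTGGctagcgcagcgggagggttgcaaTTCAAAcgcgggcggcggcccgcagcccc
Top2a (chr11:99024190-99024299, reverse strand): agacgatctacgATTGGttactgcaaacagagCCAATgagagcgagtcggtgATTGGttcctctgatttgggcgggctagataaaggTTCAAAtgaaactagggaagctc
In Cdk1, a pair of CCAAT boxes on the opposite strand precedes the CHR letters nearest the start. Within the bases shown, the CHR letters of Ube2c and Top2a are on the opposite strand. In Cdc20 the CHR letters stand between 2 CCAAT boxes. These 5 were chosen in part by their values in the arrays numbered 1. Of the 23 members with CHR letters within 40 bases of the start, all but Ttk, Kif4 and Cdca8 were called by brightest probe set. Birc5, Mad2l1, Nusap1 and Nuf2 were called and had no match in their window.

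**Figure D1:**
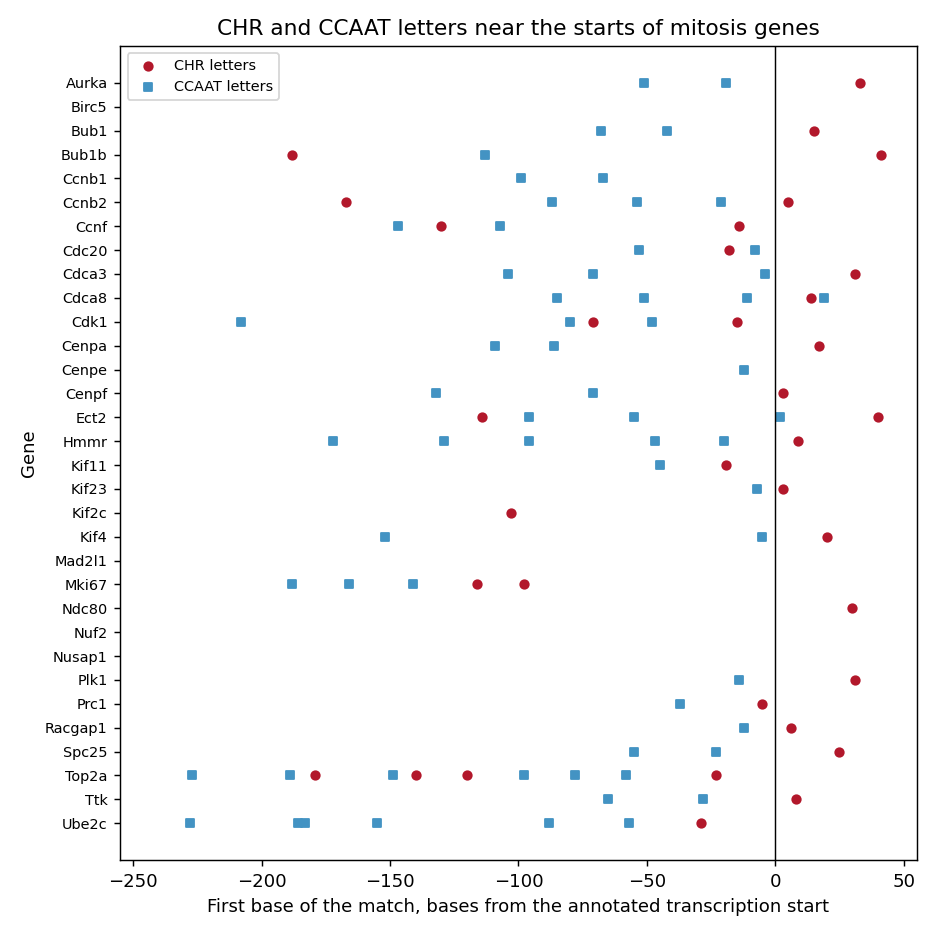
Positions of CHR letters (TTTGAA or TTCGAA, circles) and CCAAT letters (squares), on either strand, in the RefSeq window of each member, 1 row per gene; the x axis gives the first base of each match, in bases from the annotated transcription start (vertical line). CHR letters begin within 40 bases of the start in 23 members (not counted over all windows), and CCAAT letters mostly lie before it. Birc5, Mad2l1, Nuf2 and Nusap1 have no match in this window.

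Array values were intensities for each probe set, floored at 16 and taken as log2, and the probe set with the highest mean stood for each gene. Of the 38 members, 37 passed the filter on low values (a mean log2 intensity above 8.93, the median of all probe sets). Cdc25c, the phosphatase that activates Cdk1, lay just under it, at a mean of 8.90, and was not tested. Median intensity per array lay between 482.4 and 490.9. By mean log2 intensity among all probe sets, 8 fibroblast markers lay between the percentiles 86.6 and 100, with Col1a2 and Vim between 14.07 and 14.64 in all 6 arrays. Markers of other cell types ranged widely: 5 epithelial markers lay between the percentiles 8.0 and 92.1, 5 macrophage markers between 12.1 and 75.8, 4 muscle markers between 37.3 and 80.3 and 4 endothelial markers between 20.5 and 59.4. The brightest of these were Epcam (epithelial), at 11.30 to 11.49, Des (muscle), at 10.30 to 10.67, and Cd14 (macrophage), at 9.76 to 10.49, and what these signals stand for was not tested.

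Mitosis genes differed between replicate numbers, while none was called between tethered and untethered cells. In both arrays numbered 1, 1 tethered and 1 untethered, 32 of 37 tested mitosis genes were lower than in the 4 arrays numbered 2 and 3 and 0 were higher, at an adjusted p under 0.05 in limma's model with group as a term. Over all 22518 probe sets, 8.27% were called lower and 1.59% higher, and by the brightest probe set per gene 8.72% were called lower. The median difference of the 37 members was -1.31 on the log2 scale, or 2.47-fold lower in arrays numbered 1, against a median of -0.02 over all probe sets. Of the members, 25 were both called and at least 2-fold lower, against 1.64% of all probe sets. In 35 of 37 members both arrays numbered 1 lay below all 4 others, which held for 23.3% of all probe sets and 25.0% of genes by their brightest. In 0 members both lay above all 4 others, against 12.2% of all probe sets. That arrays numbered 1 stand apart was known from an earlier look at all genes on these arrays, so these calls describe the arrays and are no independent test of the number.

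**Figure D2:**
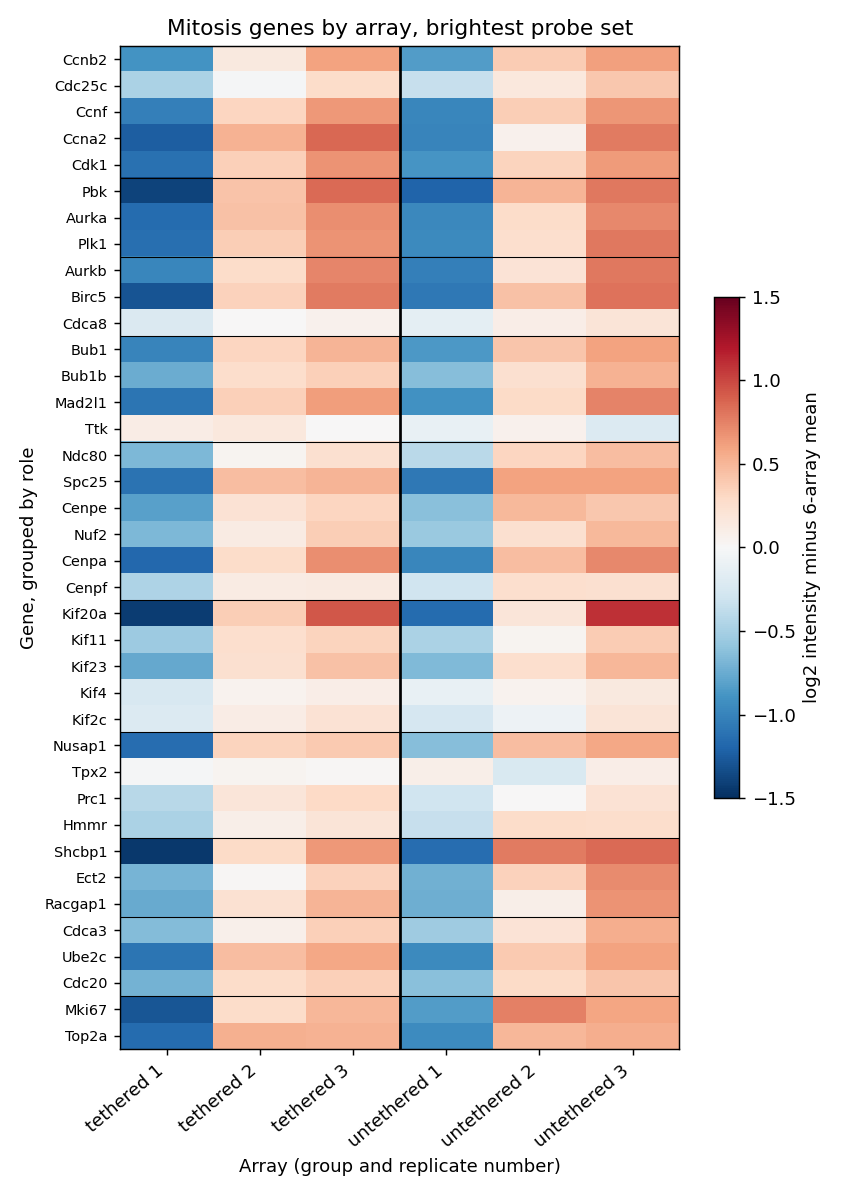
Log2 intensity of each of the 38 mitosis genes minus its mean over the 6 arrays (colour), with genes in rows by role and arrays in columns, tethered left and untethered right of the line. The columns numbered 1 are the lowest in both groups for 35 of the 37 tested genes; Ttk and Tpx2 are near 0 throughout.

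Among the cyclins and their kinase, Cdk1, the kinase that starts mitosis, had log2 intensities of 11.20 in the tethered and 11.42 in the untethered array numbered 1, against 12.67 and 12.98 in tethered arrays 2 and 3 and 12.64 and 12.95 in untethered arrays 2 and 3. Both arrays numbered 1 were below the others, with a difference of -1.50 (SE 0.14, adjusted p = 0.00836), or 2.83-fold. Ccna2, cyclin A2, which acts in S and G2 phase, had 10.36 (tethered) and 10.60 (untethered) in the arrays numbered 1, against 12.11, 12.45 (tethered), 11.66 and 12.37 (untethered) in those numbered 2 and 3, a difference of -1.67 (SE 0.23, adjusted p = 0.0146). Untethered array 2 was the lowest of its 4 high values, and the arrays numbered 1 were still clearly below it. Ccnb2, a B-type cyclin, differed by -1.31 and Ccnf, cyclin F, a substrate receptor of an SCF ubiquitin ligase, by -1.50. All 4 tested members of this group were called lower in arrays numbered 1. Cdc25c, below the filter, had 8.43 (tethered) and 8.55 (untethered) in the arrays numbered 1, against 8.89, 9.17 (tethered), 9.06 and 9.30 (untethered) in those numbered 2 and 3, with the same arrays lowest.

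The kinases Plk1, Aurka and Pbk were all called lower. Plk1, the Polo-like kinase of mitotic entry and spindle poles, had 9.79 in the tethered and 9.97 in the untethered array numbered 1, against 11.29 and 11.60 in tethered arrays 2 and 3 and 11.17 and 11.71 in untethered arrays 2 and 3. The difference was -1.56 (SE 0.17, adjusted p = 0.00984). Aurka, the Aurora kinase of the spindle poles, had 9.75 (tethered) and 9.94 (untethered) in the arrays numbered 1, against 11.35, 11.60 (tethered), 11.18 and 11.63 (untethered) in those numbered 2 and 3, and differed by -1.60 (SE 0.15, adjusted p = 0.00855). Pbk, a kinase also called TOPK, differed by -1.94 (SE 0.15, adjusted p = 0.00632), or 3.84-fold, the largest value of the tested members, close to those of Shcbp1 and Kif20a. Its values were 9.21 (tethered) and 9.40 (untethered) in the arrays numbered 1, against 11.03, 11.45 (tethered), 11.11 and 11.39 (untethered) in those numbered 2 and 3, and its groups of arrays by number did not overlap.

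The chromosomal passenger complex corrects wrong attachments of chromosomes. Birc5 (survivin), its subunit that docks on centromeres, had 10.21 in the tethered and 10.43 in the untethered array numbered 1, against 11.85 and 12.28 in tethered arrays 2 and 3 and 11.94 and 12.32 in untethered arrays 2 and 3, a difference of -1.78 (SE 0.16, adjusted p = 0.00822). Aurkb, its kinase, differed by -1.51 (SE 0.2, adjusted p = 0.0127). Cdca8 (borealin) had a difference of -0.27 (SE 0.068, adjusted p = 0.0621) on its brightest probe set and was not called there. Among the checkpoint genes, Bub1, a kinase at the kinetochore, had 9.54 (tethered) and 9.67 (untethered) in the arrays numbered 1, against 10.85, 11.04 (tethered), 10.95 and 11.13 (untethered) in those numbered 2 and 3, and Mad2l1, which encodes Mad2, the inhibitor of Cdc20, had 9.70 (tethered) and 9.88 (untethered) in the arrays numbered 1, against 11.15, 11.42 (tethered), 11.08 and 11.53 (untethered) in those numbered 2 and 3. These differed by -1.39 (SE 0.091, adjusted p = 0.00446) and -1.50 (SE 0.15, adjusted p = 0.00881), with the same arrays low in both. Bub1b, which encodes the checkpoint protein BubR1, differed by -1.03, and 3 of 4 checkpoint genes were called lower. The exception was Ttk, the kinase Mps1, at -0.01.

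All 6 centromere and kinetochore genes were called lower in arrays numbered 1. Spc25, a subunit of the Ndc80 complex that grips microtubules, had 9.05 in the tethered and 9.08 in the untethered array numbered 1, against 10.61 and 10.66 in tethered arrays 2 and 3 and 10.75 and 10.75 in untethered arrays 2 and 3. Its 4 high values span little, and it had the smallest adjusted p of the members, with a difference of -1.63 (SE 0.066, adjusted p = 0.00382). The other subunits of that complex in the set had smaller differences, -0.92 for Nuf2 and -0.80 for Ndc80. Cenpa, the histone H3 variant that marks centromeres, differed by -1.62, Cenpe, a kinetochore motor, by -1.08, and Cenpf, a large protein of the outer kinetochore, by -0.57, the smallest of the 6.

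Of 5 kinesin motors, 3 were called lower. Kif20a, a motor of the central spindle, had 7.58 in the tethered and 7.86 in the untethered array numbered 1, against 9.37 and 9.94 in tethered arrays 2 and 3 and 9.19 and 10.11 in untethered arrays 2 and 3, and differed by -1.93 (SE 0.28, adjusted p = 0.0166), with the highest standard error of the tested members. Its high values spread the most, and both arrays numbered 1 were still below all of them. Kif23, the motor of centralspindlin, differed by -1.07 and Kif11 (Eg5), which pushes the spindle poles apart, by -0.76. Kif2c (MCAK), which takes microtubules apart, at -0.34, and Kif4, a chromosome-bound motor, at -0.26, were not called. In the spindle assembly group, Nusap1, which bundles microtubules, had 9.12 (tethered) and 9.63 (untethered) in the arrays numbered 1, against 10.60, 10.66 (tethered), 10.73 and 10.85 (untethered) in those numbered 2 and 3. Its tethered array numbered 1 was the lower of the pair, and the difference by number was -1.34 (SE 0.1, adjusted p = 0.00624). Hmmr, a microtubule-binding hyaluronan receptor, differed by -0.61 and Prc1, which crosslinks the central spindle, by -0.54, both called, while Tpx2, the activator of Aurka, stood at 0.05. Other tested probe sets of Hmmr differed more, by -1.61, -1.87 and -1.22, the last not called, and that of Prc1 by -1.34.

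The genes of cytokinesis and mitotic exit were all called lower. Shcbp1, a partner of centralspindlin, had 8.83 in the tethered and 9.13 in the untethered array numbered 1, against 10.56 and 10.93 in tethered arrays 2 and 3 and 11.06 and 11.12 in untethered arrays 2 and 3, a difference of -1.94 (SE 0.11, adjusted p = 0.00395) and 3.83-fold. Racgap1, which forms centralspindlin with Kif23, differed by -1.12 and Ect2, the RhoA activator it recruits, by -1.06. Ube2c, an E2 enzyme of the anaphase-promoting complex, had 10.82 (tethered) and 10.95 (untethered) in the arrays numbered 1, against 12.37, 12.49 (tethered), 12.30 and 12.51 (untethered) in those numbered 2 and 3, a difference of -1.53 (SE 0.093, adjusted p = 0.00395). Cdc20, the activator of that complex, had the highest signals of the set in every array, at 11.97 (tethered) and 12.05 (untethered) in the arrays numbered 1, against 12.96, 13.04 (tethered), 12.97 and 13.10 (untethered) in those numbered 2 and 3, and differed by -1.01 (SE 0.074, adjusted p = 0.00605). In each of these the arrays numbered 1 lay below the others. Cdca3, linked to the degradation of Wee1, differed by -0.89. Top2a, the topoisomerase that untangles sister chromosomes, had 11.01 (tethered) and 11.22 (untethered) in the arrays numbered 1, against 12.70, 12.69 (tethered), 12.66 and 12.72 (untethered) in those numbered 2 and 3, and Mki67, the antigen Ki-67 used to count proliferating cells, had 9.95 (tethered) and 10.39 (untethered) in the arrays numbered 1, against 11.51, 11.73 (tethered), 11.99 and 11.82 (untethered) in those numbered 2 and 3. They differed by -1.57 (SE 0.078, adjusted p = 0.00395) and -1.59 (SE 0.099, adjusted p = 0.00395), and untethered array 2 held the highest Mki67 value.

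**Figure D3:**
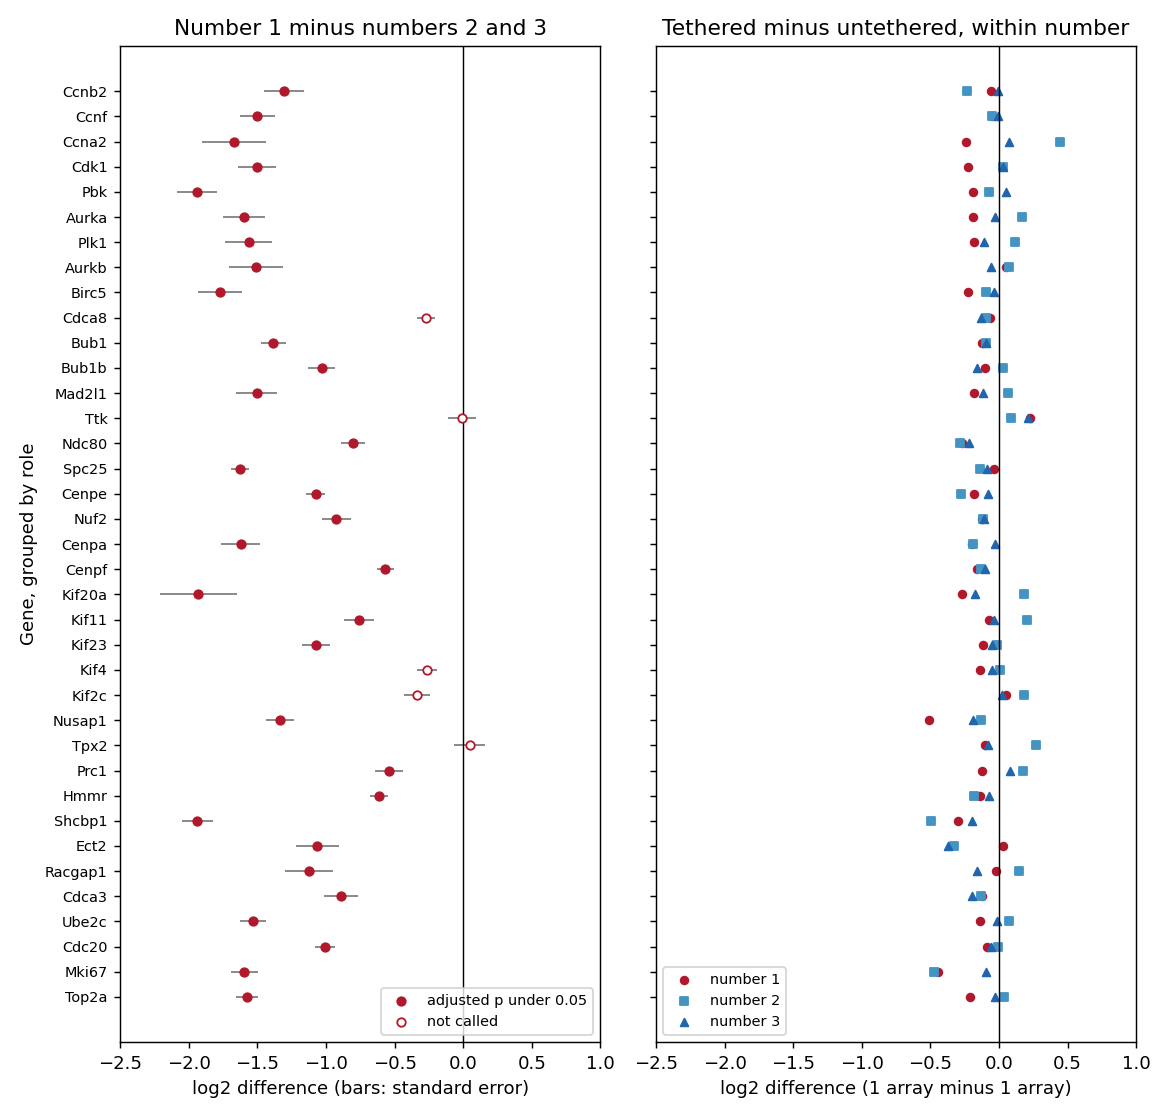
Left, difference of arrays numbered 1 minus those numbered 2 and 3 for the 37 tested mitosis genes (log2, bars are standard errors, filled circles are called at an adjusted p under 0.05); right, tethered minus untethered within each replicate number, 1 array minus 1 array. The left panel spans -1.94 to 0.05, while the right panel lies between -0.51 and 0.45.

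The 5 members not called on their brightest probe set were Tpx2, Ttk, Kif4, Cdca8 and Kif2c, and for 4 of them another probe set differed more. Tpx2 had 10.56 in the tethered and 10.67 in the untethered array numbered 1, against 10.63 and 10.61 in tethered arrays 2 and 3 and 10.36 and 10.69 in untethered arrays 2 and 3 on its brightest probe set, with no order by number, while its other probe sets differed by -1.09, which was called, and by -0.33 and 0.10, which were not. The other probe sets of Cdca8 differed by -1.88 and -1.79, those of Kif2c by -1.92, -1.73 and -0.03, and that of Ttk by -0.55. Of these, all but the last of Kif2c were called. Kif4 has 1 probe set. The values of called members also depended on the probe set. Other tested probe sets differed more in Kif11 (-1.25 and -0.87) and Bub1b (-1.50), and less in Bub1 (-0.14) and Cdca3 (-0.00). Of these, only those at -1.25 and -1.50 were called. Over all 79 probe sets of the members, 60 passed the filter, of which 48 were called lower and 0 higher. The 19 below the filter ran from -2.40 to 0.22, and a Racgap1 probe set was at the floor in all arrays. When all probe sets of a gene were averaged, 33 members passed the filter and 32 were called lower, with a median of -1.06, against 1112 of 9096 genes called lower in all.

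**Figure D4:**
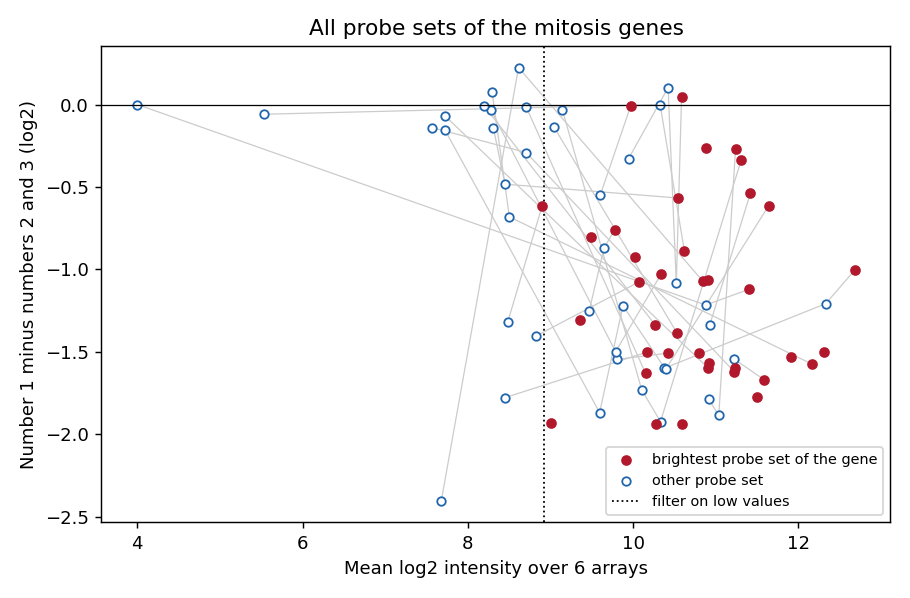
Each of the 79 probe sets of the 38 mitosis genes, with its mean log2 intensity over 6 arrays on the x axis and the difference of arrays numbered 1 minus those numbered 2 and 3 (log2) on the y axis; filled circles are the brightest probe set of a gene, open circles the others, and grey lines join probe sets of 1 gene. Several genes combine a probe set near 0 with 1 or more below -1, on both sides of the filter (dotted line).

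The lower values of number 1 were found in both groups. Within tethered cells the array numbered 1 lay below the mean of the other 2 by a median of -1.28 over the 37 members, and within untethered cells by -1.25. For Cdk1 the gap was -1.63 in tethered and -1.37 in untethered cells, and for Ccna2 -1.92 and -1.42, in that order of groups. The other probe set of Ccna2 gave -1.63 and -1.46. Ect2 went the other way, with -0.87 in tethered and -1.25 in untethered cells. In 29 of 37 members the gap was deeper in tethered cells, against 43.4% of all probe sets. A test of the difference between the gaps, added after seeing the data, called 0 members and 0 probe sets in limma, with 0 members and 5.28% of all probe sets at an unadjusted p under 0.05. Its median was -0.06 over the members with a median SE of 0.23.

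The calls by number leaned on few arrays. Without tethered array 1, a single array numbered 1 was left, assumed to vary like the others, and 0 members and 1 probe set in all were called, with a median of -1.25 over the same 37 members. Without untethered array 1, 22 members were called, with a median of -1.28. Without tethered array 3 there were 25 (of 36 tested), and without any other single array from 30 to 33. Over all probe sets, 552 were called without tethered array 3, 837 without untethered array 1 and 929 without untethered array 3, against 2220 with all arrays. After quantile normalization 31 members were called lower and 0 higher, with a median of -1.29, while the calls over all probe sets were 1621 lower and 910 higher, against 1863 and 357 without it. The upper end of the signal moved with the number in part: the 95th percentile of log2 intensity was 11.73 and 11.72 in the tethered and untethered arrays numbered 1, 11.76 in tethered array 2 and 11.92 to 11.94 in the other 3. As a sign of RNA quality, the transferrin receptor control probe sets gave a 5' signal minus 3' signal of -2.09 and -2.81 in the tethered and untethered arrays numbered 1, against -1.67 and -1.55 in tethered arrays 2 and 3 and -3.07 and -1.52 in untethered arrays 2 and 3, lowest in untethered array 2. For beta-actin the same measure was -0.285 and -0.306 in the tethered and untethered arrays numbered 1. It was -0.564 in untethered array 2 and between -0.146 and -0.101 in the others. For GAPDH it lay between -0.06 and 0.095, lowest in untethered array 2. The 18S control signal was 10.485 to 10.943 in tethered and 11.145 to 12.158 in untethered arrays, without overlap. The part of these in the differences by number or group was not tested.

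Arrays numbered 2 and 3 were set against each other in a comparison also added after seeing the data. The median difference, number 2 minus number 3, was -0.21 over the 37 members, with 35 below 0, and -0.02 over all probe sets. In 30 members the array numbered 2 was the lower in both groups, against 32.9% of all probe sets. In 24 members both arrays numbered 2 lay below both numbered 3, against 22.8% of all probe sets. None was called after adjustment in limma (0 of 22518 probe sets), and 17 members were lower at an unadjusted p under 0.05, against 6.47% of all probe sets. Kif20a had the largest value, -0.74, and Ccna2 stood at -0.53, while Top2a and Cenpf stood at -0.02 and 0.00. The other probe set of Ccna2 stood at -0.22.

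The study's own comparison addresses transcription when the insertion is tethered to the inner nuclear membrane. For the mitosis genes, log2 differences (tethered minus untethered) over the 37 tested members ran from -0.34 to 0.18 with a median of -0.08, against -0.02 over all probe sets. Limma called 0 members, as it did 0 of 22518 probe sets (percent called 0), and 0 members had an unadjusted p under 0.05, against 2.38% of all. In 0 members did the groups stand apart without overlap, against 8.16% of probe sets. Values below 0 were found for 30 of 37 members and for 55.9% of all probe sets. After quantile normalization 27 were below 0, with a median of -0.04. With no term for the number, the gap between numbers counts as spread within each group, and the median standard error of the members was 0.52.

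Cdk1 had log2 intensities of 12.28 ± 0.95 in tethered and 12.34 ± 0.81 in untethered cells (SD, n = 3 each), a difference of -0.06 with an SE of 0.59. Plk1 had 10.89 ± 0.97 in tethered and 10.95 ± 0.89 in untethered cells (SD, n = 3 each), Cdc20 12.65 ± 0.60 in tethered and 12.71 ± 0.57 in untethered cells (SD, n = 3 each). Each group held 1 low and 2 high arrays, so the standard deviations are wide and the means nearly equal. The members furthest below 0 were Mki67 at -0.34 and Shcbp1 at -0.33, with adjusted p = 0.999 for both. Mki67 had 9.95, 11.51 and 11.73 in tethered arrays 1, 2 and 3, against 10.39, 11.99 and 11.82 in untethered arrays 1, 2 and 3, and Shcbp1 had 8.83, 10.56 and 10.93 in tethered arrays 1, 2 and 3, against 9.13, 11.06 and 11.12 in untethered arrays 1, 2 and 3. In both genes the tethered array was the lower of each numbered pair, yet the groups overlapped. Ttk, the highest, had 10.08, 10.12 and 9.97 in tethered arrays 1, 2 and 3 on its brightest probe set. Untethered arrays 1, 2 and 3 had 9.86, 10.04 and 9.76, with the tethered array higher in each pair. On the other Ttk probe set, tethered minus untethered was -0.14, 0.11 and -0.11 for numbers 1, 2 and 3.

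Within each number the difference was 1 array against 1 and has no test. Tethered minus untethered, the median over the members was -0.14 for number 1, -0.01 for number 2 and -0.07 for number 3, with 33, 20 and 31 of 37 values below 0. Over all probe sets the medians were 0.01, -0.04 and -0.01, with 46.6%, 57.6% and 52.0% of values below 0. In 18 members tethered was the lower in all 3 numbers, against 16.8% of all probe sets. Without both arrays numbered 1, the median over the members was -0.03 with a median SE of 0.13, and 24 of 37 values lay below 0. The median over all probe sets was then also -0.03. Limma then called 0 members (0 at an unadjusted p under 0.05, against 6.60% of probe sets), and their lowest adjusted p was 0.698. In that comparison Cdk1 stood at 0.03 (95% interval -0.37 to 0.43), Plk1 at 0.00 (95% interval -0.52 to 0.53), Top2a at 0.00 (95% interval -0.21 to 0.22) and Mki67 at -0.28 (95% interval -0.59 to 0.02). A change of 2-fold lies outside each of these intervals, though some smaller ones do not. Without single arrays the sign of the comparison followed which numbers were left: the median was 0.31 without tethered array 1 and -0.51 without untethered array 1, with 0 members called in each.

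Other genes of the cell cycle, by their brightest probe sets, were set beside the mitosis genes. Among 49 tested other genes of G2 and M phase, 29 were called lower in arrays numbered 1 and 0 higher, with a median of -0.59, against 8.72% of all genes called lower. Cks2, a partner of Cdk1, differed by -1.39 (SE 0.08, adjusted p = 0.00395), Espl1, the separase that cuts cohesin, by -1.61, and the condensin subunits Ncapg and Smc2 by -1.63 and -1.49. Among 35 S phase genes, 25 were called lower and 0 higher, with a median of -0.90, against the same 8.72%. Rrm2, a subunit of ribonucleotide reductase, had 10.28 (tethered) and 10.46 (untethered) in the arrays numbered 1, against 12.71, 12.99 (tethered), 12.68 and 12.88 (untethered) in those numbered 2 and 3, a difference of -2.44 (SE 0.12, adjusted p = 0.00395). Tk1, thymidine kinase, differed by -2.22, Uhrf1, which guides maintenance DNA methylation, by -2.07 and Dut, which removes dUTP, by -1.13. Of these genes 0 were called between tethered and untethered cells.

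Regulators of these genes and of mitotic exit were measured too. Of 14 subunits and partners of the anaphase-promoting complex, 4 were called lower in arrays numbered 1 (Anapc4, Anapc5, Anapc11 and Fzr1, the Cdh1 activator, the last at -0.73), with a median of -0.33. Of 22 transcription factors and MuvB subunits, 7 were called lower and 0 higher, with a median of -0.19. Over all genes, 8.72% were called lower. Rbl1 (p107), a pocket protein, differed by -0.95 (SE 0.078, adjusted p = 0.00705), E2f7 and E2f8, repressors of the E2F family, by -1.45 and -0.45, and the MuvB subunit Lin9 by -0.71. Foxm1 differed by -0.77 (SE 0.15, adjusted p = 0.0326) and Mybl2, which encodes B-Myb, by 0.01 (SE 0.11, adjusted p = 0.976), a pair chosen after their values were seen. Both values are those of the brightest probe set alone, and any other probe sets are not given here.

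Growth arrest genes went both ways. Of 16 tested, 5 were called higher and 3 lower in arrays numbered 1, with a median of 0.12. Over all probe sets, 1.59% were called higher and 8.27% lower. Gadd45a, a stress-induced inhibitor of growth, had 11.41 (tethered) and 10.31 (untethered) in the arrays numbered 1, against 7.99, 7.65 (tethered), 8.89 and 8.04 (untethered) in those numbered 2 and 3, a difference of 2.72 (SE 0.43, adjusted p = 0.0203). Both arrays numbered 1 were far above the others. Ccng2, a cyclin of resting cells, was higher by 0.57 (SE 0.07, adjusted p = 0.0112). Cdkn2c, an inhibitor of the cyclin D kinases that is itself transcribed by E2F, was lower, at -1.20, and so was Pdgfra, a growth factor receptor, at -1.20. The other genes called higher were Cdkn1b (p27), Btg1 and Tob1, and the other called lower was Cdkn2d, named after their values were seen. Between tethered and untethered cells 0 of the 16 were called, with 15 values below 0 and a median of -0.14. Of all probe sets, 55.9% had values below 0 in that comparison.

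**Figure D5:**
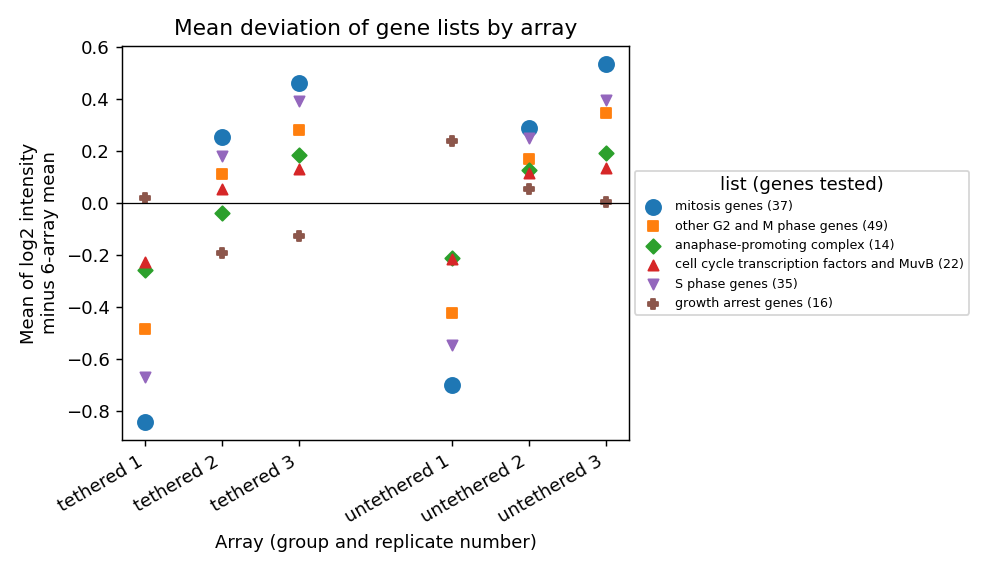
Mean over the tested genes of each list of the log2 intensity minus its 6-array mean, by array, tethered left and untethered right; numbers of genes are in the legend. The mitosis genes stand at -0.84 and -0.70 in the tethered and untethered arrays numbered 1 and between 0.25 and 0.54 in the other 4. The mean of the growth arrest genes is highest in the arrays numbered 1 of each group, but single genes weigh on it. Gadd45a had 11.41 (tethered) and 10.31 (untethered) in the arrays numbered 1, against 7.65 to 8.89 in the other 4. Btg2 had 11.83 in untethered array 1, against 9.56 to 10.38 in the others.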

How the data were processed

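The authors deposited linear intensities for 45101 probe sets and 6 arrays (summarising software and scaling not given in the sources used here). Biotin labelling followed the manufacturer's protocol, per the labels. Genes were named from the platform annotation, by probe sets with 1 symbol (34945; 932 had several and 9160 none), and 64 control probe sets were left out. Intensities were floored at 16 and taken as log2, and the 22518 probe sets above the median of mean log2 intensity were tested with limma 3.58.1 (R 4.3.3), with Benjamini-Hochberg adjustment over all of them and calls under 0.05, two-sided. Tethered was compared with untethered with no covariate, and number 1 with numbers 2 and 3 with group as a term. The procedure was tested on simulated data that held no gap between numbers outside the changes put in. That test therefore cannot tell how well the group comparison detects changes in these arrays. The members, roles and lists were chosen with earlier results of these data known. All 38 members are named, and of each other list up to 4 genes with the smallest p. Foxm1, Mybl2 and the other called growth arrest genes were named beyond that rule, after their values were seen. Alternatives were another floor, quantile normalization, median centring, no filter, averaged probe sets per gene, arrays left out, a replicate block and no group term. The number of arrays limits the precision.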

Additional observations from a re-analysis of the deposited data

How the results depend on the processing

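Tethered against untethered, 0 members were called under every alternative run (floor of 64, quantile normalization, median centring, no filter, averaged probe sets per gene, replicate block, each array or both arrays numbered 1 left out), but the signs of single members were not stable: 29 of 37 changed sign without tethered replicate 1 and 21 of 36 without untethered replicate 3. For number 1 against numbers 2 and 3, averaged probe sets gave 1370 calls over 9096 genes and a median of the members of -1.063, against 2220 calls; with 1 array left out calls ran from 1 to 2847, members called from 0 to 33 and the members' median from -1.352 to -1.137. Number 2 minus number 3 gave 0 to 2 probe sets called with 1 array left out, and the difference between the gaps of the groups gave 1 call with averaged probe sets. The numbers were not taken as pairing the arrays: deviations from the group means correlated at 0.71, 0.075 and 0.711 between arrays of the same number (1, 2 and 3), and tethered array 2 correlated best with untethered array 3 (0.365). With the number as a replicate block, 0 members were called between the groups. Unadjusted calls over all probe sets were 1232 in place of 536. Of the members, 5 had an unadjusted p under 0.05 against 5.47% of probe sets (Nusap1, Mki67, Shcbp1 and Ndc80 below 0, Ttk above). The other Ttk probe set stood at -0.046 (SE 0.080). The median SE of the members was then 0.071 in place of 0.519, with Ndc80 at -0.257 (SE 0.063), Shcbp1 at -0.330 (SE 0.083) and Mki67 at -0.338 (SE 0.100), and the lowest adjusted p in limma was 0.740; by number, 32 members were called. With 3 arrays a group and 2 of number 1, small differences could not be detected.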

Other observations

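Some fibroblast markers also had lower values in the arrays numbered 1. Col3a1, a fibrillar collagen, had log2 intensities of 11.18 and 12.04 in the tethered and untethered arrays numbered 1, against 12.79 and 12.72 in tethered arrays 2 and 3 and 12.75 and 12.93 in untethered arrays 2 and 3. Thy1, a surface protein of fibroblasts, had 11.23 and 11.58 in the arrays numbered 1, against 12.06 and 12.26 (tethered) and 12.16 and 12.12 (untethered). Pdgfrb, a receptor for platelet-derived growth factor, was lower in the tethered arrays 2 and 3, at 10.21 and 10.29, than in tethered array 1 at 11.09 and in the untethered arrays, at 11.16, 11.41 and 11.21. Of the other fibroblast markers, Col1a1, Vim and S100a4 also had both arrays numbered 1 below the other 4. Fn1 and Col1a2 did not, with 14.00 and 14.29 in untethered array 1, for Fn1 its highest value. Over all probe sets, 23.3% had both arrays numbered 1 below the other 4. The values printed here were chosen after they were seen and were not tested.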
